A study of Mus musculus with 10 samples.

Results

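In the cross used here the cre transgene that removes *Dot1l* is inherited together with a stretch of chromosome 2, because the strain name in the sample labels places it at *E2f1*. The protein-coding genes around *E2f1* were therefore described as a group. All protein-coding genes of the counts whose GENCODE start lies in the 3 Mb of chromosome 2 around it (mm10, from *Pdrg1* at 153008890 to *6430550D23Rik* at 155973279) were taken. This gave 71 of 21906 protein-coding genes in the deposited counts, 1843 of which are on this chromosome. The rule itself uses position only, though it was set around *E2f1*, *Necab3* and *Cbfa2t2* with earlier results of these data known. Of the 71 genes, 49 had enough counts to be tested and 22 had not.

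RNA of the lumbar spinal cord of 10 mouse embryos at E12.5 was sequenced, with the dorsal root ganglia left on the tissue. The 5 *Dot1l*-cKO embryos carried 1 copy of Wnt1cre2 and 2 floxed *Dot1l* alleles (Wnt1cre2/+; Dot1lfl/fl). The 5 controls carried no transgene, with 2 floxed alleles (+/+; Dot1lfl/fl) in the 3 controls of litter 1 and 1 floxed allele (+/+; Dot1lfl/+) in the 2 controls of litter 2, and the strain given for every embryo is B6.Cg-E2f1Tg(Wnt1-cre)2Sor/J. Litter 1 held 3 *Dot1l*-cKO embryos and litter 2 held 2. Wnt1 regulatory sequence drives the cre, which is known for activity in the dorsal neural tube and the neural crest, and it can also reach ventral cells, but not every cell of the tissue need carry the deletion. Since all 5 *Dot1l*-cKO embryos and none of the controls had the transgene, the loss of *Dot1l*, the presence of the transgene and the chromosome 2 segment linked to it cannot be told apart in any comparison below.

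Total counts on genes lay between 40949585 and 68928443 per embryo. *Dot1l* itself was at 87.6 to 107 CPM (counts scaled to library size after TMM normalization) in controls and at 97.8 to 112 CPM in *Dot1l*-cKO, with a log2 fold change of 0.17 (standard error 0.06, adjusted p = 0.128 by edgeR), and in litter 2 alone it was higher, with 0.29 (adjusted p = 0.0240 by edgeR). The genotype is thus not checked by whole-gene counts. *Wnt1* had a log2 fold change of 0.61 (standard error 0.18, adjusted p = 0.0721 by edgeR), and in litter 2 alone it was higher, with a log2 fold change of 1.03 (adjusted p = 0.00435 by edgeR). *Xist* was at 6.00 and 6.79 CPM in the *Dot1l*-cKO embryos of litter 2 and between 499 and 890 CPM in the other 8 embryos, so that in litter 2 sex and genotype cannot be told apart. Summed markers of dorsal root ganglia were at 271 to 292 CPM in controls and 354 to 411 CPM in *Dot1l*-cKO of litter 2, whereas in litter 1 they were at 679 to 692 and 491 to 656 CPM. Blood markers in litter 2 were at 121 to 138 CPM in controls and 215 to 284 CPM in *Dot1l*-cKO, and mesenchyme markers at 666 to 789 and 818 to 934 CPM. Neurons, progenitors and motor neurons of the cord were all present, with none of their 11 markers at 0. Over both litters, 0 of 24 markers of these and other cell types passed the test by edgeR or DESeq2, with 4 at an unadjusted p under 0.05 by edgeR. In such bulk tissue, fewer cells of a type and less RNA per cell cannot be told apart.

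The interval holds genes of unrelated function. *E2f1* encodes a transcription factor that is held by the retinoblastoma protein and drives genes of S phase once released, and proliferating spinal cord progenitors use this pathway. *Necab3*, which encodes an EF-hand calcium-binding protein, lies next to it on the same strand. *Cbfa2t2* encodes a corepressor of the ETO family, which brings histone deacetylases to transcription factors. On the other side lies *Pxmp4*, which encodes a membrane protein of the peroxisome. Genes that flank an inserted transgene are commonly inspected in such lines.

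The gene body of *E2f1* spans chromosome 2 from 154559407 to 154569892 on the minus strand. *Necab3* (154544399 to 154558890, minus strand) begins 517 bp beyond the 3′ end of *E2f1*, so both genes read in the same direction, one after the other. *Cbfa2t2* (154436481 to 154539356, plus strand) ends 20051 bp from *E2f1*, and *Actl10* (154551776 to 154553276, plus strand), an actin-like gene, sits inside the body of *Necab3* on the opposite strand without sharing exon bases with it. *Pxmp4* (154585758 to 154603708, minus strand) lies 15866 bp beyond the 5′ end of *E2f1*. To show what lies upstream of the starts of both genes nearest to *E2f1* that rose and of the nearest gene on its other side, the bases from 250 to 51 before their RefSeq starts are printed from RefSeq (GRCm38.p6), 5′ to 3′ on the strand of the gene. Capitals mark GC boxes (GGGCGG, either strand) and CCAAT boxes (CCAAT, either strand).
Necab3, chr2:154558905-154559104, minus strand: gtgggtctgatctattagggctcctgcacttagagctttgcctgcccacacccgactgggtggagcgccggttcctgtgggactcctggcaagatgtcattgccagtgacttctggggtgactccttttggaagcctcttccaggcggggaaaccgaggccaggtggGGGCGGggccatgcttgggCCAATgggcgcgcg
Cbfa2t2, chr2:154436234-154436433, plus strand: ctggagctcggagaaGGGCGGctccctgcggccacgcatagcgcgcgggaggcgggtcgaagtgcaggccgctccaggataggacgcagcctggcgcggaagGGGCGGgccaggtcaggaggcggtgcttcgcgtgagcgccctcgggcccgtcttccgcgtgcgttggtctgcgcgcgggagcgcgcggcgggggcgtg
Pxmp4, chr2:154603724-154603923, minus strand: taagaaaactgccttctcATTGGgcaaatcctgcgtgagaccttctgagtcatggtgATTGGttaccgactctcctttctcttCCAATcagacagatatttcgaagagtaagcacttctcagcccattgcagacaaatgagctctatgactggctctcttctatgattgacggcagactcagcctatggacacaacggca

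The *Necab3* window ended 302 bases from the *E2f1* gene body and held 1 GC box and 1 CCAAT box. That of *Cbfa2t2* held 2 GC boxes and no CCAAT box, with 31 CpG dinucleotides against 9 for *Necab3* and 5 for *Pxmp4*, and the window of *Pxmp4* held 3 CCAAT boxes and no GC box. Windows were matched for 54 of the 71 genes, 60 windows in all. A GC box was in 36.7% of these windows and in 24.6% of 32851 RefSeq windows of the same length, and a CCAAT box in 31.7% and 28.4%. The E2F motifs TTTCCCGC, TTTCGCGC, TTTGCCGC and TTTGGCGC, searched on both strands, were in 0 of the 60 windows and in 1.46% of all windows. At so low a share, 0 of 60 cannot show a lack of these motifs, and bases nearer the starts were not searched. Each motif was counted on its own even where matches overlap. The RefSeq window for *E2f1* starts inside its GENCODE gene body and is not shown, though it is counted among the 60.

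*Necab3* and *Cbfa2t2*, both on the 3′ side of *E2f1*, rose in *Dot1l*-cKO, and *E2f1* itself was lower. *Necab3* was at 8.73, 9.07 and 9.65 CPM in the controls of litter 1 and at 9.50 and 9.46 CPM in those of litter 2. In *Dot1l*-cKO it was at 11.6, 17.1 and 16.2 CPM in litter 1 and at 23.2 and 24.8 CPM in litter 2. All 5 *Dot1l*-cKO embryos were above all 5 controls, while the controls of both litters stayed close to one another. The means were 9.28 ± 0.378 CPM in controls and 18.6 ± 5.37 CPM in *Dot1l*-cKO (SD, n = 5 each), a log2 fold change of 0.96 (standard error 0.13, Benjamini-Hochberg adjusted p = 0.00357 by the quasi-likelihood test of edgeR). Without regard to direction, 362 of 18901 tested genes (1.92%) had no overlap over the 10 embryos, and *Necab3* was the 1 gene of the interval that did. With the log2 CPM of *Xist* as a covariate its log2 fold change was 0.69 and the call was lost (adjusted p = 0.0612 by edgeR). *Xist* was low only in the *Dot1l*-cKO embryos of litter 2. A fit with this covariate therefore takes the genotype difference mostly from litter 1, where *Necab3* had 0.72 when fitted alone. The part of sex in calls lost with this covariate, here and below, was not tested.

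*Cbfa2t2* was at 92.4, 94.5 and 98.5 CPM in controls and 113, 124 and 129 CPM in *Dot1l*-cKO of litter 1. In litter 2 it was at 112 and 114 CPM in controls and 172 and 163 CPM in *Dot1l*-cKO. In both litters the groups were apart, although 1 *Dot1l*-cKO embryo of litter 1 lay within the range of the controls of litter 2. The log2 fold change was 0.44 (standard error 0.05, adjusted p = 0.00188 by edgeR's quasi-likelihood test), which is a 1.36-fold higher level. This was the lowest unadjusted p among the 1220 tested protein-coding genes of chromosome 2, with *Necab3* second, and among all tested genes they stood at ranks 7 and 15. *Cbfa2t2* was the 1 gene of the interval still called with *Xist* as a covariate.

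*E2f1* was at 21.6, 23.8 and 23.3 CPM in controls and 14.2, 19.2 and 19.4 CPM in *Dot1l*-cKO of litter 1. In litter 2 the controls were at 42.0 and 46.9 CPM and the *Dot1l*-cKO at 38.8 and 36.5 CPM. Within each litter all *Dot1l*-cKO embryos were below the controls, but the litters stood further apart than the genotypes. Its log2 fold change of -0.32 (standard error 0.08) was just past the threshold, with an adjusted p = 0.0492 by edgeR. The call was lost on leaving out any 1 of 8 of the 10 embryos, all except *Dot1l*-cKO embryos 3 and 7 of litter 1, with log2 fold changes between -0.37 and -0.25 and adjusted p between 0.0604 and 0.129 by edgeR. It was also lost with *Xist* as a covariate, where the log2 fold change was -0.39 (adjusted p = 0.162 by edgeR). That fit rests mostly on litter 1, where *E2f1* had -0.38 when fitted alone.

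**Figure D1:**
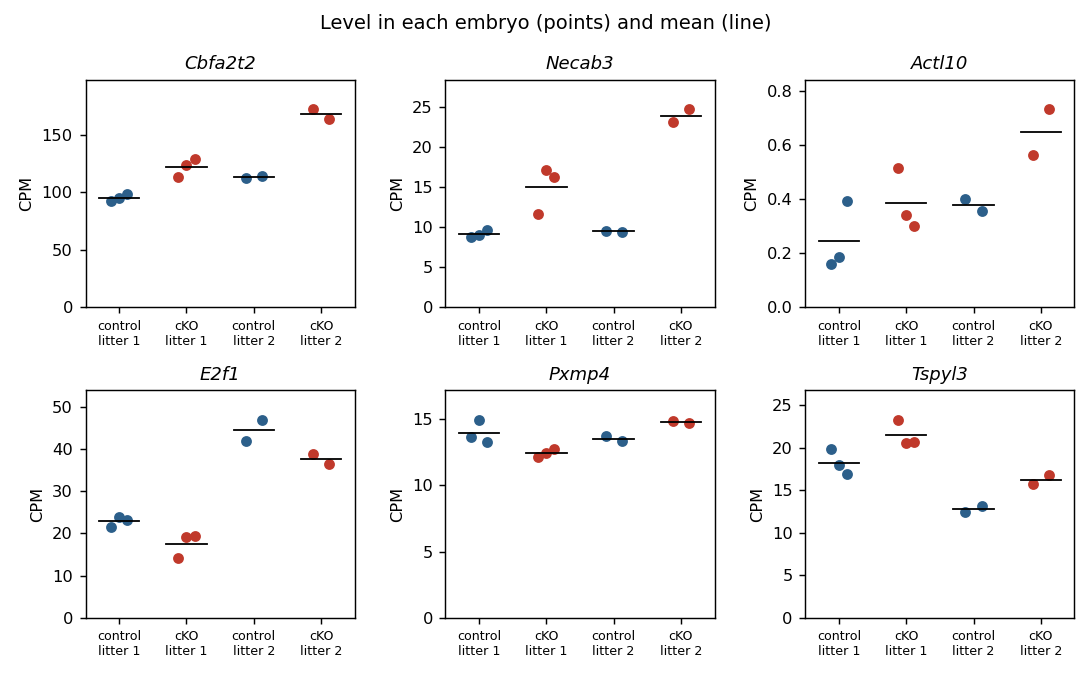
Level in each embryo (points, CPM) and the mean of each litter and genotype (line) for 6 genes of the interval, with controls in blue and *Dot1l*-cKO in red; each axis starts at 0. *Necab3* is above all controls in every *Dot1l*-cKO embryo, *Cbfa2t2* and *Tspyl3* are higher and *E2f1* is lower within each litter, and *Pxmp4* moves in opposite directions in the litters.

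The other genes close to *E2f1* did not pass the test. *Actl10* had 222 counts in all, with 0.158 to 0.398 CPM in controls and 0.300 to 0.732 CPM in *Dot1l*-cKO, so the groups overlapped (log2 fold change 0.69, standard error 0.30, adjusted p = 0.192 by edgeR). Its exon lies within an intron of *Necab3*, and as counting is described only as run with the defaults of the workflow, without naming a strand setting, reads of the 2 genes may not be told apart. *Pxmp4* was at 13.6, 14.9 and 13.3 CPM in controls and 12.2, 12.4 and 12.7 CPM in *Dot1l*-cKO of litter 1, and at 13.7 and 13.4 against 14.9 and 14.7 CPM in litter 2. It was thus below the controls in litter 1 and above them in litter 2, and its log2 fold change over both was -0.05 (standard error 0.07, adjusted p = 0.748 by edgeR). In neither litter alone was it called (adjusted p = 0.466 in litter 1 and 0.502 in litter 2 by edgeR). *Zfp341*, a zinc finger gene 43405 bp away on the same side, had a log2 fold change of -0.02 (standard error 0.08). *Chmp4b*, which encodes an ESCRT-III subunit, had 0.10 (standard error 0.06), and *Raly*, which encodes an RNA-binding protein, had 0.04 (standard error 0.05). On the side of *Cbfa2t2*, *Cdk5rap1*, whose product modifies transfer RNA, had a log2 fold change of 0.24 (standard error 0.13, adjusted p = 0.280 by edgeR).

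The genes within 250 kb that could not be tested were at very low level. *1700003F12Rik*, which shares 71 exon bases with *Necab3*, had 69 counts in all, between 0.0459 and 0.228 CPM. An exact permutation test within litters, two-sided, on log2(CPM + 0.5) gave p = 0.617. *4930519P11Rik* had 50 counts (exact permutation p = 0.0667) and shared 106 exon bases with *Zfp341*, and nonagouti (*Asip*), a coat colour signalling gene, had 10 counts (exact permutation p = 0.2). With 120 arrangements this test can give no p below 0.0167. *Gm14214* and *Bpifb9b* had 0 counts in all embryos.

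Over the whole interval, 4 of 49 tested genes had an adjusted p below 0.05. The share of such genes among all 18901 tested was 3.19%. DESeq2's Wald test called the same 4 genes. With limma-voom *Necab3* and *Cbfa2t2* were called, and *E2f1* (adjusted p = 0.056) and *Tspyl3* (adjusted p = 0.0524) were not, and without a litter term in edgeR 0 were called. *Necab3*, *Cbfa2t2* and *Tspyl3* were higher, where 1.99% of all genes were called higher, and *E2f1* was lower, where 1.20% were. *Tspyl3*, a gene of the nucleosome assembly protein family, lies 1333966 bp from *E2f1* (153222370 to 153225441, minus strand). It was at 19.9, 17.9 and 16.9 CPM in controls and 23.2, 20.5 and 20.7 CPM in *Dot1l*-cKO of litter 1, and at 12.47 and 13.1 against 15.7 and 16.7 CPM in litter 2. The *Dot1l*-cKO embryos were above the controls in each litter, and the log2 fold change was 0.28 (standard error 0.07, adjusted p = 0.0444 by edgeR). Like *E2f1* it lost the call on leaving out any 1 of 8 embryos, all except *Dot1l*-cKO embryos 3 and 7 of litter 1, with log2 fold changes between 0.25 and 0.32. With *Xist* as a covariate, a fit that rests mostly on litter 1, it was 0.23 and was not called (adjusted p = 0.284 by edgeR). In litter 1 alone *Tspyl3* had 0.24.

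Most genes of the interval differed little. In 36 of the 49 the absolute log2 fold change was under 0.2, 28 values were positive and 21 negative, and 12 had an unadjusted p under 0.05. Shares over all tested genes are not given for these counts, nor for other counts at an unadjusted p under 0.05. Such counts are therefore not to be read as particular to the interval. The median log2 fold change was 0.04 against -0.01 over all tested genes, and the median absolute value was 0.10 against 0.11. The most extreme positive value belonged to *Efcab8*, an EF-hand gene with 103 counts in all, with 0 to 0.196 CPM in controls and 0.133 to 0.366 CPM in *Dot1l*-cKO (log2 fold change 1.35, standard error 0.54, adjusted p = 0.164 by edgeR). At the other end, after *E2f1*, were 2 genes of the vasculature. *Ccm2l*, related to a scaffold of endothelial junctions, had -0.23 (standard error 0.17) and *Procr*, the endothelial protein C receptor gene, had -0.20 (standard error 0.19). Of 27 genes of other types in the interval, such as antisense transcripts and pseudogenes, 4 were tested by edgeR and 0 were called, with a smallest adjusted p of 0.135 and 1 at an unadjusted p under 0.05, and DESeq2 called 0.

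Within litters, *Necab3* and *Cbfa2t2* moved the same way. In litter 1 fitted alone, 0 of 49 tested genes were called by edgeR (9 at an unadjusted p under 0.05), where 12 of 19275 genes (0.0623%) were called over the whole table. DESeq2 called 2 there, and so did 1 edgeR model over all embryos with an effect for each litter, and in both cases these were *Cbfa2t2* and *Necab3*. In the litter 1 fit *Necab3* had a log2 fold change of 0.72 (standard error 0.14, adjusted p = 0.0823 by edgeR) and *Cbfa2t2* had 0.36 (standard error 0.06, adjusted p = 0.0597 by edgeR). In litter 2 alone 2 of 49 were called, against 5.13% of all 18786 genes tested there. These were *Necab3*, with a log2 fold change of 1.34 (standard error 0.10, adjusted p = 2.47e-05 by edgeR), and *Cbfa2t2*, with 0.57 (standard error 0.06, adjusted p = 5.15e-04 by edgeR). Both calls were lost in the model over all embryos without control embryo 5 or without control embryo 7 of that litter, and that of *Cbfa2t2* without its *Dot1l*-cKO embryo 4. In litter 2 markers of dorsal root ganglia, blood and mesenchyme were also higher in *Dot1l*-cKO, as given above, and their part in the result was not tested. In litter 1, where the groups did not overlap for *Necab3* and *Cbfa2t2* either, the summed markers of dorsal root ganglia were lower in every *Dot1l*-cKO embryo than in the controls. Those of blood overlapped, at 142 to 169 CPM in controls and 123 to 188 CPM in *Dot1l*-cKO, and so did those of mesenchyme, at 981 to 1360 and 662 to 1076 CPM.

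The difference between the litters was tested as an interaction of litter and genotype. None of the 49 genes was called by edgeR, with a smallest adjusted p of 0.439 and 3 at an unadjusted p under 0.05, and DESeq2 called 0. Over all tested genes, 2 of 18901 (0.0106%) were called. The 3 were *Necab3* (interaction 0.63 on the log2 scale, unadjusted p = 0.00749 by edgeR's quasi-likelihood test), *Pxmp4* (0.29, unadjusted p = 0.0395 by edgeR) and *Cbfa2t2* (0.20, unadjusted p = 0.0429 by edgeR). The log2 fold changes of 35 of 48 genes had the same sign in both litters, and Spearman's rho between the litters was 0.63 over these 48 genes, which share the libraries of each litter. The same values over all tested genes are not given, so this agreement need not be particular to the interval. In 5 genes, *Tspyl3*, *Cbfa2t2*, *Necab3*, *E2f1* and *Gdf5*, the groups did not overlap in either litter and in the same direction. This held for 8.10% of all tested genes. *Gdf5*, a growth factor gene of the BMP family, had 400 counts in all and a log2 fold change of 0.33 (standard error 0.19, adjusted p = 0.327 by edgeR).

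**Figure D2:**
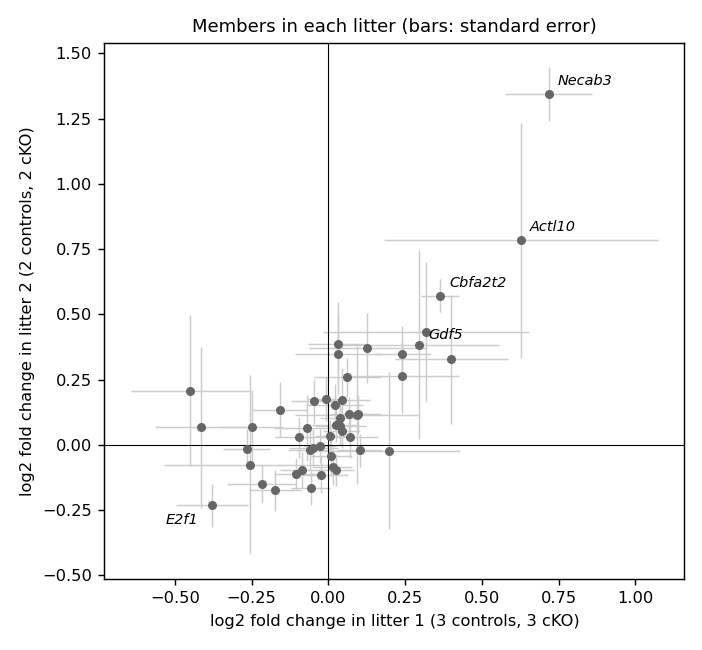
Log2 fold change of *Dot1l*-cKO against control in litter 1 (x axis) and in litter 2 (y axis) for the 48 genes with a value in both litters, with standard errors as bars. *Necab3* and *Cbfa2t2* lie at the upper right and *E2f1* at the lower left, and most genes lie near 0 in both litters.

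By distance, the called genes apart from *Tspyl3* lay at or beside *E2f1*, on 1 side of it. Within 50 kb of the *E2f1* gene body, 5 genes were tested and 2 called, with a median absolute log2 fold change of 0.44. The 3 of them at lower coordinates, *Cbfa2t2*, *Necab3* and *Actl10*, had values from 0.44 to 0.96, and the 2 at higher coordinates, *Pxmp4* and *Zfp341*, had -0.05 and -0.02. From 50 to 250 kb, 4 genes were tested and 0 were called by edgeR (0 at an unadjusted p under 0.05), with a median absolute value of 0.12, and all 4 values were positive, from 0.04 to 0.24. From 250 to 500 kb, 3 were tested, and from 500 to 1000 kb 13 were, with median absolute values of 0.10 and 0.07, 0 called by edgeR, and 1 and 2 at an unadjusted p under 0.05. Beyond 1000 kb, 23 were tested and 1, *Tspyl3*, was called, with a median absolute value of 0.13. Beyond 50 kb the medians thus lay on both sides of the 0.11 of all tested genes, and over the 48 genes Spearman's rho between distance and absolute log2 fold change was 0.05, a description over genes that share all libraries. With distances taken between transcription start sites, *Cbfa2t2* moved from the nearest group to the next, so that 1 of 4 genes was called within 50 kb and 1 of 5 from 50 to 250 kb.

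In each litter alone the 3 genes at lower coordinates within 50 kb also had the larger values. In litter 1 these lay between 0.36 and 0.72 and in litter 2 between 0.57 and 1.34, and the 2 genes on the other side lay between -0.16 and -0.07 in litter 1 and between 0.07 and 0.13 in litter 2. Of the 3 genes, *Actl10* was not called and rests on 222 counts, and its reads may not be told apart from those of *Necab3*.

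**Figure D3:**
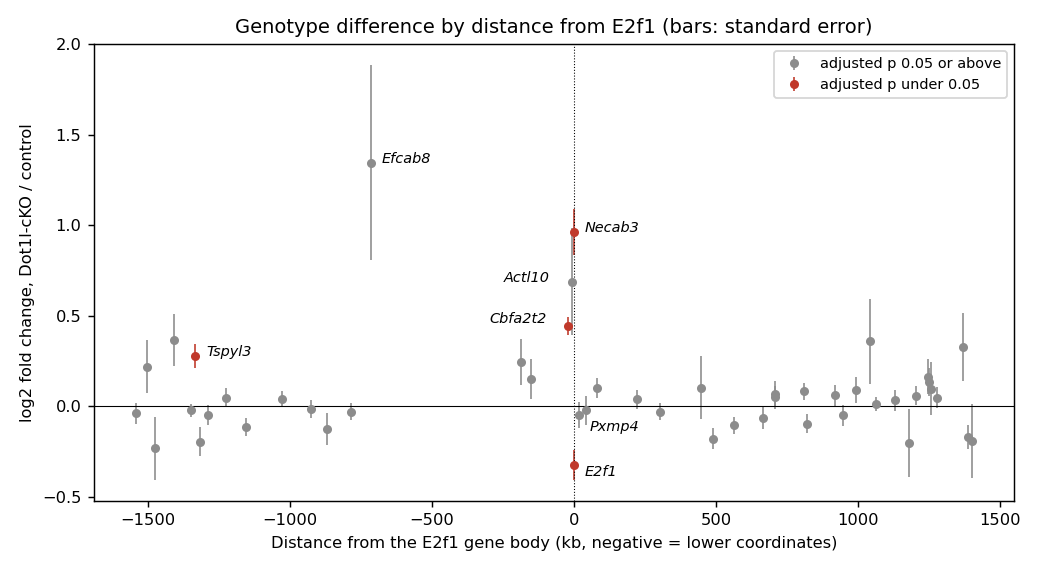
Log2 fold change over both litters, with its standard error as a bar, for the 49 tested genes against the distance between their gene body and that of *E2f1* in kb, with negative distances at lower coordinates. The called genes, in red, are *Necab3* and *Cbfa2t2* beside *E2f1*, *E2f1* itself and *Tspyl3* at the far left; *Efcab8* is the most extreme value and has the longest bar.

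Compared with the rest of chromosome 2, the 3 Mb interval stood in the middle by the size of its differences. By the number of genes called over both litters its place was higher. Of 1220 tested protein-coding genes of the chromosome, 51 were called (4.18%), 40 higher and 11 lower. In 39 other windows of 3 Mb with at least 10 tested genes, the median absolute log2 fold change lay between 0.05 and 0.21 with a median of 0.09, and the interval, with 0.10, stood at rank 18 of the 40. By the number called, 4, it shared rank 2 with 4 other windows, and by the share called, 8.16%, it stood at rank 7. With 1 window centred on *E2f1*, 4 of 48 genes were called (8.33%), at a rank 2 shared with 4 other windows by number. By share it stood at rank 5, which was also tied. With windows shifted by 1.5 Mb, the one that holds *E2f1* no longer holds the start of *Cbfa2t2* and had 2 of 59 genes called (3.39%). By number this was a tied rank 7, with 6 of 45 other windows above and 33 below, and 22 of the 45 had a higher share. In litter 2 alone the interval had 2 of 49 called (4.08%), at rank 29 of 40 by share, and in litter 1 it had none, as given above. The window before it had 4 of 44 genes called and the window after it had 2 of 45. Without the 6 genes within 50 kb of *E2f1*, *E2f1* included, 1 of 43 was called (2.33%) and the spread of log2 fold changes fell from an SD of 0.29, rank 11, to 0.25, rank 20.

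In windows of 1 Mb, the one that holds *E2f1* had 3 of 11 tested genes called (27.3%), the highest share among 95 windows with at least 5 tested genes, of which the next had 25%. Its median absolute log2 fold change of 0.15 stood at rank 15. These ranks include *E2f1*, *Necab3* and *Cbfa2t2*, around which the interval was drawn, and are given without a test. Among 1219 pairs of neighbouring tested genes on the chromosome, 3 pairs had both genes called in the same direction. These were *Skida1* with *Mllt10*, *Nrsn2* with *Sox12*, and *Cbfa2t2* with *Necab3*. By the median absolute log2 fold change in single litters, the interval stood at rank 26 in litter 1 and rank 28 in litter 2 of 40 windows.

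**Figure D4:**
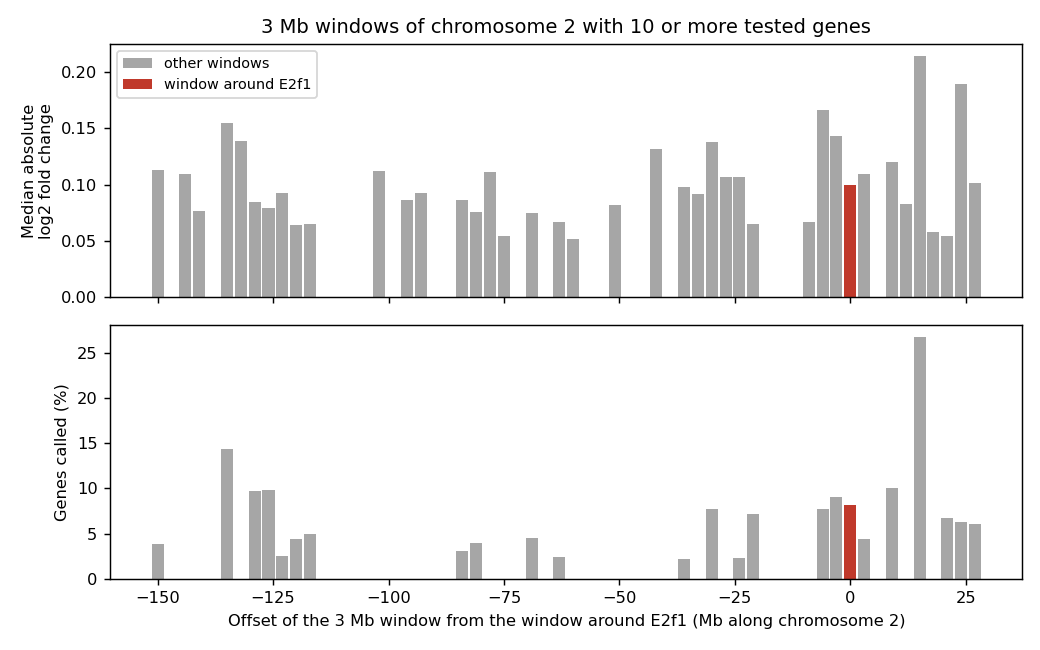
Median absolute log2 fold change (upper panel) and share of genes with an adjusted p below 0.05 in percent (lower panel) in windows of 3 Mb along chromosome 2, placed by their offset in Mb from the window around *E2f1*, which is in red. The red bar is in the middle of the other bars by size of difference, at 0.10, and among the higher ones by share called, at 8.16%.

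Grouped by role, the 4 called genes belonged to 3 groups. Of the 5 genes of cell cycle and transcription, all tested, 1 rose (*Cbfa2t2*), 1 fell (*E2f1*) and 3 did not pass, with a median log2 fold change of -0.10. Both genes listed under chromatin did not pass, and *Dnmt3c*, a further DNA methyltransferase gene that was not on that list, was not tested over both litters. The listed genes were *Dnmt3b*, a de novo DNA methyltransferase gene, with -0.13 (standard error 0.09), and *Asxl1*, a Polycomb-associated gene, with -0.11 (standard error 0.05). Of 7 signalling genes 6 were tested and 1 (*Necab3*) rose. None of the 8 tested genes of cytoskeleton and motors, the 6 listed under membrane traffic and autophagy, the 4 of translation and RNA or the 8 of metabolism passed the edgeR test. Their medians were 0.10, 0.01, 0.09 and 0.00, and unadjusted p was under 0.05 in 3, 1, 0 and 1 of them. The remaining 17 genes, which were on none of these lists and include *Dnmt3c* and *Trp53inp2*, held 10 tested ones, of which *Tspyl3* rose.

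The highest levels per exon length in controls were those of *Dynlrb1*, a dynein light chain gene, at 107 FPKM (CPM per kilobase of exons), *Trp53inp2*, an autophagy gene, at 60.7 FPKM and *Map1lc3a*, which encodes an LC3 protein, at 60.4 FPKM. Their log2 fold changes were -0.06 (standard error 0.06), 0.08 (standard error 0.04) and 0.07 (standard error 0.07), and none passed. On the same scale in controls *Cbfa2t2* was at 11.8 FPKM, *E2f1* at 10.0, *Pxmp4* at 4.43 and *Necab3* at 3.64, and 21 genes of the interval were above 10 FPKM. The BPI fold family, secreted lipid-binding proteins mostly of the airway and mouth, lies as a cluster of 13 genes in the interval. None was tested, and the highest of them had 26 counts over the 10 embryos.

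As the pathway of *E2f1*, 26 known E2F target genes, of which none lies in the interval, were followed. All were tested and 7 were called, all of them lower (*Mcm6*, *Ccne1*, *Cdc25a*, *Pola1*, *Ezh2*, *Pcna* and *Tk1*), where 1.20% of all genes were called lower. In 25 of the 26 the log2 fold change was negative. The median was -0.23 over both litters, -0.22 in litter 1 and -0.21 in litter 2, against -0.01 over all tested genes. DESeq2 called 13 and limma-voom 5, all lower. With *Xist* as a covariate, a fit that rests mostly on litter 1, 0 were called by edgeR while the median stayed at -0.22. *Mcm6*, a subunit of the replicative helicase, had a log2 fold change of -0.25 (standard error 0.05, adjusted p = 0.0313 by edgeR). *Ccne1*, which encodes cyclin E1, had -0.34 (standard error 0.08, adjusted p = 0.0356 by edgeR). Summed neural progenitor markers were at 735 to 854 CPM in controls and 617 to 796 CPM in *Dot1l*-cKO of litter 1, and at 1323 to 1360 and 1227 to 1236 CPM in litter 2, and their part in the lower *E2f1* and target values was not tested.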

How the data were processed

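Lumbar spinal cord RNA of 5 control and 5 *Dot1l*-cKO embryos was sequenced. The authors deposited raw counts of paired reads per gene for 54146 genes, without normalization. By their methods, reads were trimmed with TrimGalore, aligned to mm10 with STAR and counted with featureCounts in snakePipes with its default parameters; which strand setting this means is not given in the sources used here. Positions came from GENCODE M21 on GRCm38, the same build but a later release than the one counted on, and 54079 identifiers matched without version.

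Counts were tested in R 4.3.3 with edgeR 4.0.16 (quasi-likelihood test, TMM, default expression filter by group, litter in the model, Benjamini-Hochberg adjustment over all tested genes, threshold 0.05). The standard error is the log2 fold change divided by the square root of F. Each litter was also fitted alone, and the interaction of litter and genotype was tested. DESeq2 1.42.0 and limma 3.58.1 (voom) served as alternatives, and the filter given the model and windows without each embryo were added after seeing the data. The tests were tested on simulated data. Windows and distances are descriptions.

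The members, gene lists and marker genes were chosen with earlier results of these data known. Genes named with values were *E2f1*, *Necab3*, *Cbfa2t2*, *Pxmp4* and *Actl10*, genes within 250 kb of *E2f1*, all called genes, the 3 highest and 3 lowest log2 fold changes, the 3 highest levels per exon length, and *Dot1l*, *Wnt1* and *Xist* as checks. *Gdf5*, *Dnmt3b*, *Dnmt3c* and *Asxl1*, the neighbouring pairs and the E2F targets with values were named after their values were seen. 1 gene that the rule names is not reported here. By the labels each sample is a separate embryo and so 1 replicate. As a check for a library deposited more than once, the counts of the 8 pairs within a litter and genotype were compared, and the lowest chi-square was 8.588 per gene, above sampling noise. The precision of values rests on n and on totals of at least 40949585 counts.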

Additional observations from a re-analysis of the deposited data

Results flagged for a closer look

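Among the 16 named and tested genes, the 5 embryos of each group were checked for 1 embryo that stood far from the other 4, which made 32 checks, and chance flags about 1 in 20 of them. In *Pxmp4*, control embryo 5 of litter 1 was at 14.94 CPM, above the other controls. In *Cdk5rap1*, the same control was at 10.37 CPM and *Dot1l*-cKO embryo 3, also of litter 1, was at 11.73 CPM, each above the rest of its group. None of these 3 values belongs to a gene that was called.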

How the results depend on the processing

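Of the 49 tested genes, 4 were called over both litters. The count was 1 (*Cbfa2t2*) with *Xist* as a covariate, a fit that rests mostly on litter 1. With limma-voom it was 2 (*Cbfa2t2* and *Necab3*), without a litter term 0, and without an expression filter 6, where *Plagl2* and *Xkr7* were added. It was 4, with the same genes, with DESeq2, its size factors, the other form of edgeR's test (legacy = FALSE) and the filter given the model. Leaving out 1 embryo gave 2 to 4, with *Cbfa2t2* and *Necab3* kept in 10 of 10 fits and *E2f1* and *Tspyl3* in 2. In litter 1, where 0 were called, the joint model and DESeq2 gave 2 and no filter gave 4, and leaving out 1 embryo of the litter in the joint model gave 0 to 3. In litter 2, no filter gave 5 in place of 2, and leaving out 1 embryo in the joint model, where the lone embryo left in a group is assumed to vary like the others, gave 0 to 2. The cause of these shifts was not tested. The log2 fold change of *Zfp341*, -0.02, lay between -0.0651 and 0.0199 on leaving out 1 embryo, with 0.0181 without *Dot1l*-cKO embryo 7 of litter 1 and 0.0199 without control embryo 5 of litter 1. The median absolute log2 fold change of the interval, 0.0995, was 0.1497 in the 1 Mb window, 0.1177 in litter 2 alone and 0.0764 to 0.1182 without 1 embryo. Within 50 kb of *E2f1* it was 0.3673 in place of 0.4422 when distances were taken between transcription start sites. Embryos could not be paired 1 to 1, because within a litter no embryo number occurs in both groups. Litter was in the main model instead. Low counts limit *Actl10*, *Efcab8* and the genes not tested.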
